A study of Arabidopsis thaliana with 20 samples.

Results

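Transcripts of 4 genes of amino acid use were followed in submerged, darkened and lit Arabidopsis thaliana. They were ASPGB1 (AT3G16150, probe set 258338_at), which encodes an asparaginase, and MGL (AT1G64660, probe set 261957_at), which encodes methionine gamma-lyase. The others were AT5G38710 (probe set 249527_at), a proline dehydrogenase gene, and AT2G41190 (probe set 267080_at), an amino acid transporter gene. They are 4 of the 13286 genes that had a probe set naming 1 gene, and each had 1 such probe set. The genes were chosen with their values in these arrays known, so their levels and differences are given as a description, without p-values.

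Plants that run out of sugar can respire amino acids in place of carbohydrate. Asparaginase releases ammonium from asparagine and leaves aspartate, which can enter central metabolism. Methionine gamma-lyase splits methionine into methanethiol, ammonium and 2-oxobutyrate, and the last of these can be used to make isoleucine. Proline dehydrogenase oxidises proline in mitochondria and passes the electrons to the respiratory chain. Transporters of the amino acid families move these compounds across membranes, but the substrate and membrane of AT2G41190 are not given by the sources used here.

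Wild-type plants of accession Col-0 with 9 to 10 leaves were put completely under water in darkness for 7 or 24 h, kept in air in the same darkness for 7 or 24 h, or harvested in the light at 0 h. Treatment began 2 h into a photoperiod of 9 h at 20 °C. Whole roots and whole shoots (rosettes) were taken separately, which gave 10 groups of 2 Affymetrix arrays, 1 from each of 2 independent replicate experiments, and this number of arrays limits the precision. No group carried a transgene or mutation, and in dark and submerged plants alike the light was off. A dark harvest differs from the light harvest in light, in time since the start and, at 7 h, in time of day, and these cannot be told apart. Harvests at 7 and 24 h likewise differ in both duration and time of day. In whole organs, fewer cells of a type and less RNA per cell cannot be told apart either.

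All levels below are log2 expression values from RMA (robust multi-array average), in which a difference of 1 is a doubling, and differences carry the standard error (SE) of a limma fit over all 20 arrays. Levels of different probe sets are not comparable with each other. Array medians lay between 6.134 and 6.405, and replicate arrays correlated with Pearson's r of 0.9915 to 0.9958 across probe sets, which are not independent replicates. The mean level of 3 shoot markers (LHCB4.2, PRK and SPCH, 3 measured of 12 listed) was 4.39 to 5.82 over root arrays and 9.51 to 11.02 over shoot arrays. That of 3 root markers (EXPA7, EXPA18 and PYK10, 3 of 12) was 7.99 to 11.08 over root arrays and 5.81 to 6.47 over shoot arrays. Of the starvation list 2 of 13 genes were measured, AKINBETA1 and BZIP53, and in darkness AKINBETA1 rose in both organs and BZIP53 in shoots. Under water 0 of the 2 were called by limma in either organ, and with an unadjusted p under 0.05 1 was lower in roots at 7 h, and in shoots at 24 h 1 was higher and 1 lower. All 5 measured of 12 listed low-oxygen genes rose in submerged roots at 7 h and at 24 h, and 4 and 3 of them in submerged shoots at these times, relative to darkness. Of all probe sets 4.42% and 1.39% were called higher in submerged roots at 7 and 24 h, and 6.52% and 5.90% in submerged shoots. At 7 h AKINBETA1, a SnRK1 subunit gene raised by sugar lack, stood 3.40 higher in dark roots and 4.97 higher in dark shoots than in light. BZIP53 stood at 11.03 in dark roots at 7 h and 10.94 at 24 h, against 10.97 in light roots. The gene lists were chosen with earlier results of these data known. Their counts and p-values, here and below, are therefore no independent check. Sugars themselves were not measured.

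ASPGB1 was abundant in roots deprived of light, whether under water or not, and low in shoots. Submerged roots read 12.80 and 12.77 at 7 h, against 13.36 and 13.41 in dark roots. The submerged roots of 24 h read 12.33 and 12.08, against 13.22 and 12.11 in dark roots. Light roots read 7.44 and 7.23. Every dark or submerged root array therefore stood more than 4 log2 units above the light root arrays, and submerged roots lay below dark roots at 7 h and overlapped them at 24 h. The submerged minus dark difference was −0.60 (SE 0.29) at 7 h. At 24 h it was −0.46 (SE 0.29), which became 0.09 without dark root replicate 1 and −1.02 without dark root replicate 2. The difference from light was 6.05 (SE 0.29) in dark roots at 7 h, which is 66.4-fold, and 5.33 (SE 0.29) at 24 h.

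In shoots the same gene gave another picture. Submerged shoots read 8.62 and 8.74 at 7 h, against 6.98 and 7.58 in dark shoots. After 24 h submerged shoots read 7.89 and 7.53, against 7.10 and 6.37 in dark shoots, while light shoots read 6.86 and 6.41. Submerged shoots were above dark shoots at both times without overlap, whereas dark shoots at 24 h overlapped light shoots. The submergence difference was 1.40 (SE 0.29) at 7 h and 0.97 (SE 0.29) at 24 h, and dark shoots differed from light shoots by 0.64 (SE 0.29) at 7 h and 0.10 (SE 0.29) at 24 h. The SD of dark shoots was 0.42 at 7 h and 0.52 at 24 h (n = 2 each).

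Ranked over the 10 groups, ASPGB1 was highest in dark roots at 7 h (13.39). Submerged roots at 7 h (12.78), dark roots at 24 h (12.67) and submerged roots at 24 h (12.20) came next, and in this run no neighbours were set apart beyond their spread, although submerged roots at 7 and 24 h, which are not neighbours, did not overlap. Here and below, neighbours in a ranking count as set apart when their arrays do not overlap and their means differ by more than the residual SD of the gene, which was 0.29 for ASPGB1. A gap of more than 3 log2 units then led to submerged shoots at 7 h (8.68) and at 24 h (7.71). Light roots (7.33), dark shoots at 7 h (7.28) and 24 h (6.73) and light shoots (6.64) closed the ranking as a run in which no neighbours were set apart, although light roots and light shoots, its ends, did not overlap.

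MGL was raised strongly in both organs whenever the light was off. Submerged roots read 12.27 and 12.30 at 7 h, against 12.15 on both arrays of dark roots. The submerged roots of 24 h read 12.36 and 12.31, against 13.24 and 12.75 in dark roots, and light roots read 5.69 and 6.62. The dark and submerged roots lay about 6 log2 units above the light roots, with a difference of 5.99 (SE 0.23) in dark roots at 7 h, which is 63.8-fold, and 6.84 (SE 0.23) at 24 h, which is 115-fold.

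MGL was far above its light level in dark and submerged shoots too. Submerged shoots read 13.56 and 13.50 at 7 h, against 13.11 and 12.81 in dark shoots. After 24 h submerged shoots read 12.77 and 12.37, against 12.77 and 12.73 in dark shoots, and light shoots read 7.58 and 7.29. All dark and submerged arrays were again far above the light arrays, and at 24 h submerged and dark shoots overlapped. Dark shoots exceeded light shoots by 5.52 (SE 0.23) at 7 h and 5.31 (SE 0.23) at 24 h.

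Between 7 and 24 h MGL differed by 0.85 (SE 0.23) in dark roots and 0.05 (SE 0.23) in submerged roots, and by −0.21 (SE 0.23) in dark shoots and −0.96 (SE 0.23) in submerged shoots.

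The differences of MGL between water and air were small beside those between darkness and light. The submerged minus dark difference was 0.13 (SE 0.23) in roots at 7 h, −0.66 (SE 0.23) in roots at 24 h, 0.57 (SE 0.23) in shoots at 7 h and −0.18 (SE 0.23) in shoots at 24 h. The value in roots at 24 h was −0.42 without dark root replicate 1, and that in shoots at 24 h was 0.02 without submerged shoot replicate 2 and −0.38 without submerged shoot replicate 1. In the ranking, submerged shoots at 7 h (13.53) stood first and were set apart. Dark roots at 24 h (13.00), dark shoots at 7 h (12.96), dark shoots at 24 h (12.75) and submerged shoots at 24 h (12.57) followed as neighbours not set apart. Submerged roots at 24 h (12.33) and 7 h (12.28) and dark roots at 7 h (12.15) came next, also not set apart from each other. Light shoots (7.44) and light roots (6.16) were the only groups under 12. The levels of ASPGB1 in roots and of MGL in both organs without light reach the upper part of the range of the arrays, whose highest value was 15.02, and whether probes were near saturation was not tested.

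**Figure D1:**
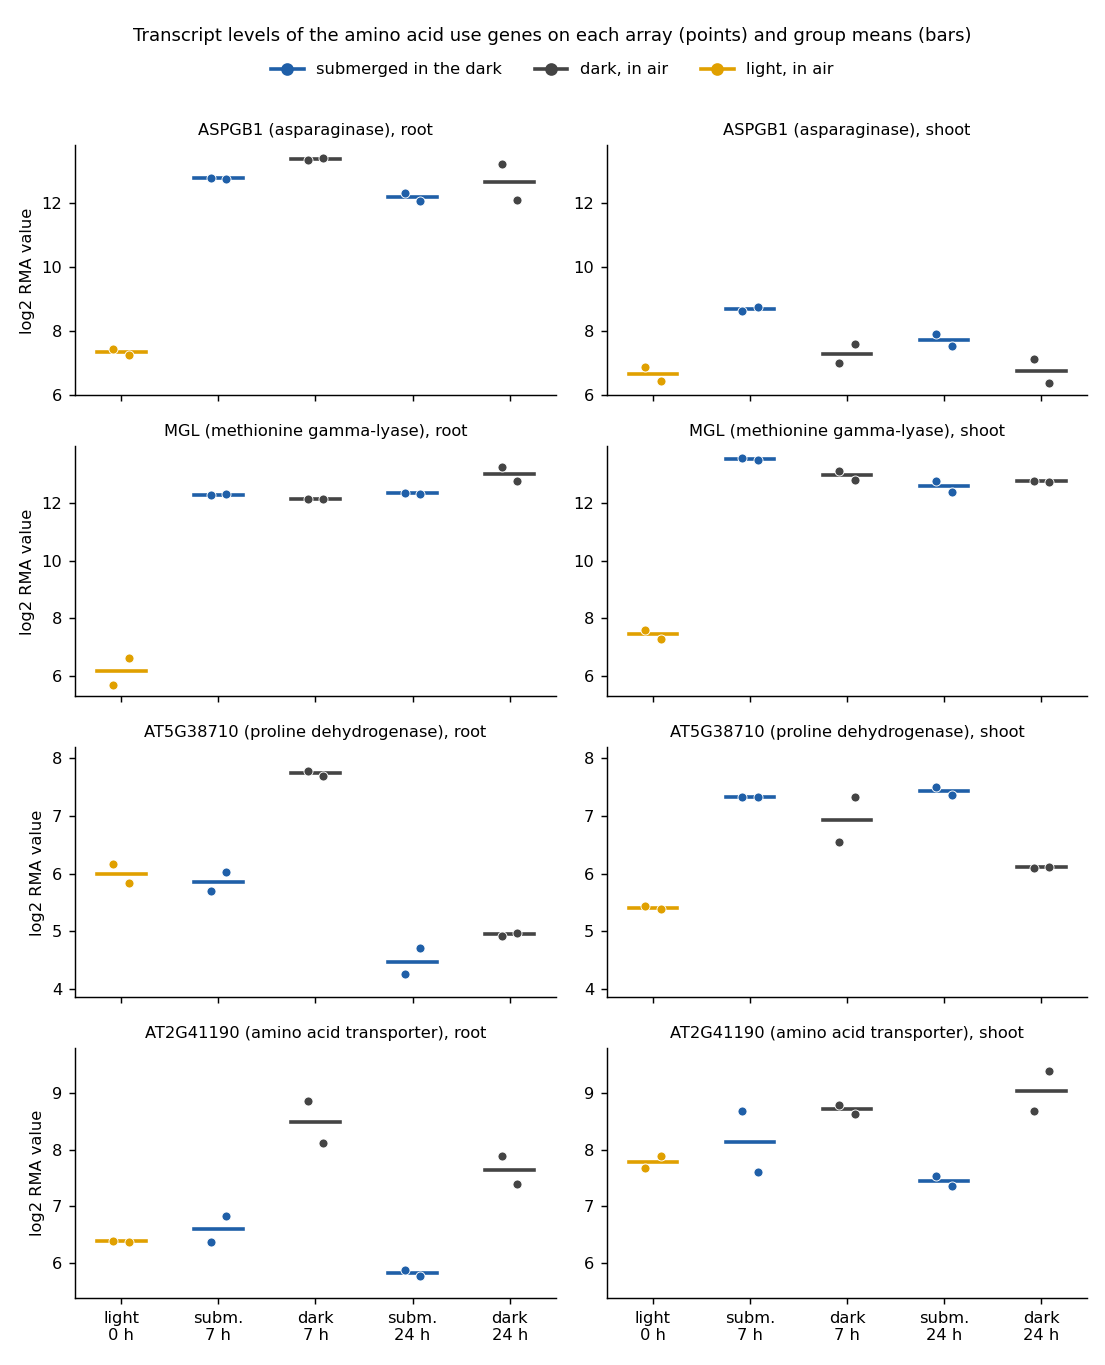
Level of each gene (log2 RMA value, y axis, 1 row of panels per gene with the same scale for roots, left, and shoots, right) on every array, by condition and harvest time. Points are the 2 arrays of a group and bars their mean; ASPGB1 is high in dark and submerged roots alone, MGL in every group without light, and AT5G38710 and AT2G41190 cover a narrower range in which submerged roots lie below dark roots.

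AT5G38710 was higher in dark roots at 7 h than in submerged or light roots, and at 24 h dark roots lay below light roots. Its level between the harvests was not measured. At 7 h submerged roots read 5.69 and 6.03, against 7.78 and 7.68 in dark roots, and light roots read 6.16 and 5.84. Submerged roots thus overlapped light roots while dark roots stood above both. The difference was −1.87 (SE 0.20) for submerged against dark roots and 1.73 (SE 0.20) for dark against light roots. By 24 h submerged roots read 4.26 and 4.71, against 4.92 and 4.97 in dark roots. Both sets lay below the light roots, dark roots by −1.05 (SE 0.20), and the submerged minus dark difference was −0.46 (SE 0.20), or −0.23 without submerged root replicate 1.

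In submerged shoots AT5G38710 stood above light shoots at both harvests. At 7 h submerged shoots read 7.33 and 7.32, against 6.54 and 7.33 in dark shoots. The submerged shoots of 24 h read 7.50 and 7.36, against 6.09 and 6.12 in dark shoots, and light shoots read 5.44 and 5.38. Submerged and dark shoots overlapped at 7 h and were apart at 24 h, with a difference of 0.39 (SE 0.20) at 7 h and 1.33 (SE 0.20) at 24 h. Between 7 and 24 h the level in dark shoots differed by −0.83 (SE 0.20), whereas that in submerged shoots differed by 0.11 (SE 0.20). In dark roots the difference over the same interval was −2.78 (SE 0.20), the largest of the 4 genes, and in submerged roots it was −1.38 (SE 0.20).

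In the ranking of AT5G38710 dark roots at 7 h (7.73) stood first and submerged roots at 24 h (4.48) last, a span of 3.25. Submerged shoots at 24 h (7.43) and 7 h (7.32) and dark shoots at 7 h (6.93) followed the dark roots at 7 h and were not set apart from 1 to the next. Dark shoots at 24 h (6.11), light roots (6.0) and submerged roots at 7 h (5.86) formed another run of that kind. Light shoots (5.41) and dark roots at 24 h (4.95) were set apart from their neighbours.

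AT2G41190 was higher in darkness than in light in both organs, and in submerged roots it stood at or below the light level. Submerged roots read 6.36 and 6.82 at 7 h, against 8.86 and 8.12 in dark roots. After 24 h submerged roots read 5.88 and 5.77, against 7.88 and 7.39 in dark roots, and light roots read 6.39 and 6.37. Submerged roots at 7 h overlapped light roots, and at 24 h they lay below them. The submerged minus dark difference was −1.90 (SE 0.30) at 7 h and −1.81 (SE 0.30) at 24 h, and dark roots exceeded light roots by 2.11 (SE 0.30) at 7 h and 1.25 (SE 0.30) at 24 h.

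In shoots the same gene separated later. At 7 h submerged shoots read 8.68 and 7.60, against 8.79 and 8.63 in dark shoots. At 24 h submerged shoots read 7.54 and 7.35, against 8.69 and 9.39 in dark shoots, and light shoots read 7.67 and 7.89. The arrays overlapped at 7 h, where the 2 submerged shoots differed by more than 1 log2 unit, and did not overlap at 24 h. The submerged minus dark difference was −0.57 (SE 0.30) at 7 h and −1.60 (SE 0.30) at 24 h, and dark shoots exceeded light shoots by 0.93 (SE 0.30) at 7 h and 1.26 (SE 0.30) at 24 h.

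The ranking of AT2G41190 had few steps. Dark shoots at 24 h (9.04) and 7 h (8.71), dark roots at 7 h (8.49), submerged shoots at 7 h (8.14), light shoots (7.78), dark roots at 24 h (7.64) and submerged shoots at 24 h (7.44) formed 1 run in which no neighbours were set apart. Submerged roots at 7 h (6.59) and light roots (6.38) lay below it, and submerged roots at 24 h (5.82) lay lowest.

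The calls of the 4 genes in this and the next paragraph are no test of them, because the genes were chosen with these values known. Counted in the fit over all 22746 probe sets, with an adjusted p under 0.05, 2 of the 4 genes were called lower in submerged than dark roots at 7 h and 0 higher, where 4.27% of all probe sets were called lower and 4.42% higher. At 24 h 1 was called lower, where 1.83% of probe sets were called lower and 1.39% higher. In submerged shoots 1 was called higher at 7 h, where 6.52% of probe sets were called higher and 7.14% lower. At 24 h 2 were called higher and 1 lower in shoots, where 5.90% were called higher and 6.02% lower. The calls in submerged shoots at 7 h and 24 h included ASPGB1. Its call at 7 h ended without dark shoot replicate 1, when the difference was 1.10. At 24 h it ended without dark shoot replicate 2 (0.61), submerged shoot replicate 1 (0.79) or submerged shoot replicate 2 (1.15), and when the prior variance followed a trend fitted robustly. In submerged shoots at 7 h AT5G38710 was called without dark shoot replicate 2, with a difference of 0.79, and had a difference of −0.00 without dark shoot replicate 1. AT2G41190 was called there without submerged shoot replicate 1, with a difference of −1.11, and had a difference of −0.03 without submerged shoot replicate 2.

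For darkness against light, all 4 were called higher in roots at 7 h, where 24.8% of probe sets were called higher and 22.1% lower. At 24 h in roots 3 were called higher and 1, AT5G38710, lower, where 27.8% of probe sets were called higher and 25.0% lower. In shoots 3 were called higher at 7 h, where 24.9% of probe sets were called higher and 24.0% lower, and 3 at 24 h, where 27.0% were called higher and 25.4% lower. The gene without a call in shoots was ASPGB1. ASPGB1 in dark shoots at 7 h was called without dark shoot replicate 1, when the difference was 0.94. The difference was 0.34 without dark shoot replicate 2 and 0.41 without light shoot replicate 2. The call of AT2G41190 in dark shoots at 7 h ended without dark shoot replicate 1 or light shoot replicate 1, when the differences were 0.85 and 0.82. Because the 4 genes were picked from such results, these counts describe the choice. The submergence and darkness comparisons of an organ share its dark arrays, and those at 7 and 24 h of darkness share its light arrays.

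**Figure D2:**
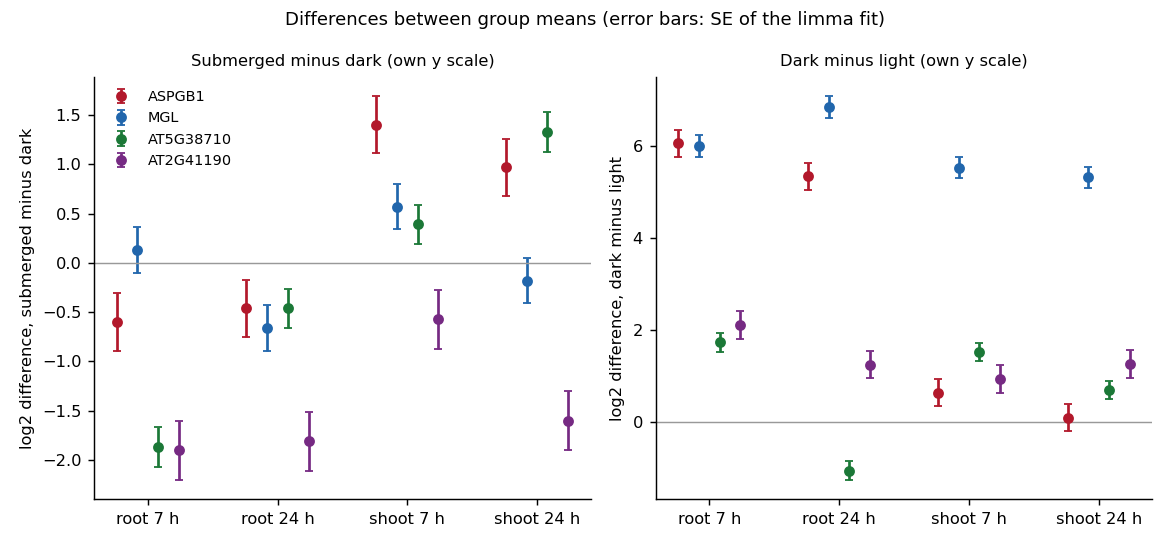
Differences between group means (log2, y axis; each panel has its own scale) for submerged minus dark tissue (left) and dark minus light tissue (right), by organ and harvest time, with the SE of the fit as error bars. On the left AT2G41190 lies below 0 in all 4 comparisons, at 7 h in shoots by −0.57 (−0.03 without submerged shoot replicate 2), and ASPGB1 lies above 0 in shoots and below 0 in roots, at 24 h by −0.46 (0.09 without dark root replicate 1); on the right MGL lies above 5 throughout, and ASPGB1 does so in roots only.

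The genes differed in how far roots and shoots went the same way. In light, root minus shoot levels were 0.70 (SE 0.29) for ASPGB1, 0.59 (SE 0.20) for AT5G38710, −1.28 (SE 0.23) for MGL and −1.40 (SE 0.30) for AT2G41190. The root change in darkness minus the shoot change was 5.41 (SE 0.41) at 7 h and 5.23 (SE 0.41) at 24 h for ASPGB1. For MGL it was 0.47 (SE 0.32) and 1.53 (SE 0.32), in each case smaller than the change within either organ. For AT5G38710 it was 0.21 (SE 0.29) at 7 h and −1.75 (SE 0.29) at 24 h, and for AT2G41190 it was 1.18 (SE 0.43) and −0.01 (SE 0.43). The 3 root markers all fell in dark roots at both times. Of all probe sets 24.8% were called higher and 22.1% lower there at 7 h, and 27.8% and 25.0% at 24 h. The mean level of the root markers was 8.04 to 8.46 at 7 h and 7.99 to 8.01 at 24 h in dark roots, against 10.92 to 11.08 in light roots. Of the 3 shoot markers LHCB4.2 rose in dark roots, by 2.11 (adjusted p = 2.0e-07) at 7 h and 2.47 (adjusted p = 1.7e-08) at 24 h, and PRK and SPCH did not pass. The mean level of the 3 was 5.32 to 5.34 at 7 h and 5.30 to 5.32 at 24 h in dark roots, against 4.39 to 4.65 in light roots. In dark shoots 2 of the 3 shoot markers fell at each time, PRK and SPCH at 7 h and LHCB4.2 and SPCH at 24 h. Of all probe sets 24.0% were called lower in dark shoots at 7 h and 25.4% at 24 h. By limma 0 of the 3 root markers were called in dark shoots at either time, with 0 also at an unadjusted p under 0.05. The part of these markers in the values of the 4 genes was not tested.

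Under water the root change minus the shoot change was negative for all 4 genes at both times. It was −2.01 (SE 0.41) at 7 h and −1.44 (SE 0.41) at 24 h for ASPGB1, and −2.26 (SE 0.29) and −1.79 (SE 0.29) for AT5G38710. For AT2G41190 it was −1.33 (SE 0.43) and −0.22 (SE 0.43), and for MGL −0.44 (SE 0.32) and −0.48 (SE 0.32), so that at 24 h the values of AT2G41190 lay within 1 SE of equal change. In submerged roots at 7 h 2 of the 3 root markers rose against dark roots, with a mean level of 8.77 to 9.10 against 8.04 to 8.46, and at 24 h 1 of the 3, PYK10, fell by 0.89 (adjusted p = 0.0073). Of all probe sets 4.42% were called higher in submerged roots at 7 h and 1.83% lower at 24 h. In submerged shoots at 7 h LHCB4.2 and PRK fell against dark shoots and SPCH rose, and the root marker PYK10 fell by 1.05 (adjusted p = 3.7e-04). In that comparison 7.14% of all probe sets were called lower and 6.52% higher. The part of these marker changes in the results was not tested.

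The 4 genes did not share 1 pattern over the groups. Over the 5 root groups the means of ASPGB1 and MGL correlated with r of 0.97, and over the 5 shoot groups with r of 0.60. AT5G38710 and AT2G41190 gave r of 0.70 over root groups and −0.19 over shoot groups. Over all 10 groups the 6 pairs of genes ranged from −0.33, for ASPGB1 and AT2G41190, to 0.56, for AT5G38710 and AT2G41190. These correlations describe a few group means from the same arrays and carry no test.

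Transcripts of most other measured enzymes of amino acid breakdown were raised in darkness as well. The list held 46 further genes, of which 17 had a 1-gene probe set, and most of the measured ones act on branched-chain amino acids or pass on the electrons this releases. It was chosen with earlier results of these data known, so its counts and p-values are a description and no independent support. In dark roots 14 of the 17 rose at 7 h, with a median change of 1.21 over the list and 0.08 over all probe sets. At 24 h 14 rose and 2 fell, with a median of 1.53, and 0.10 over all probe sets. In dark shoots 14 rose and 2 fell at 7 h (median 1.94, and −0.00 over all probe sets), and 14 rose and 3 fell at 24 h (median 1.72, and 0.03 over all probe sets). Of all probe sets 24.8% were called higher and 22.1% lower in dark roots at 7 h, and 27.8% and 25.0% at 24 h. In dark shoots these shares were 24.9% and 24.0% at 7 h and 27.0% and 25.4% at 24 h. The lysine breakdown gene AT4G33150, which encodes lysine-ketoglutarate reductase and saccharopine dehydrogenase, rose most in shoots, to 12.57 in dark shoots at 7 h against 5.97 in light shoots, by 6.61 (SE 0.17, adjusted p = 4.4e-15). MCCA, a leucine breakdown gene, rose most in roots, to 13.12 in dark roots at 7 h against 8.89 in light roots, by 4.23 (SE 0.12, adjusted p = 7.4e-14). AT4G31810, listed for branched-chain breakdown, fell by 1.70 in dark roots at 24 h (adjusted p = 2.3e-07), and it fell by 1.12 in dark shoots at 7 h (adjusted p = 3.1e-05).

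ASPGA1, the other asparaginase gene of the list, rose in darkness in both organs. It stood at 9.46 in dark roots at 7 h and 9.42 at 24 h against 9.00 in light roots, changes of 0.47 (adjusted p = 0.0041) and 0.42 (adjusted p = 0.0073). In dark shoots it rose by 0.60 (adjusted p = 4.4e-04) at 7 h and 1.11 (adjusted p = 3.6e-07) at 24 h. Its root change minus its shoot change did not pass at 7 h (−0.13, adjusted p = 0.61) and was −0.69 (adjusted p = 0.0039) at 24 h. ASPGB1 differed from light by 6.05 in dark roots and 0.64 in dark shoots at 7 h. For the breakdown list the root change in darkness minus the shoot change was tested. At 7 h it was negative for 7 of 17 genes and positive for 2, where 20.5% of probe sets were called lower and 18.4% higher. At 24 h it was negative for 8 and positive for 2, where 21.8% of probe sets were called lower and 17.8% higher. A positive value need not mean a larger change in roots. The 2 genes positive at 7 h, AT5G09300 and AT4G31810, stood at 5.24 and 6.26 in dark shoots, against 5.88 and 7.37 in light shoots. In dark roots they stood at 6.37 and 8.09, against 6.29 and 8.51 in light roots.

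**Figure D3:**
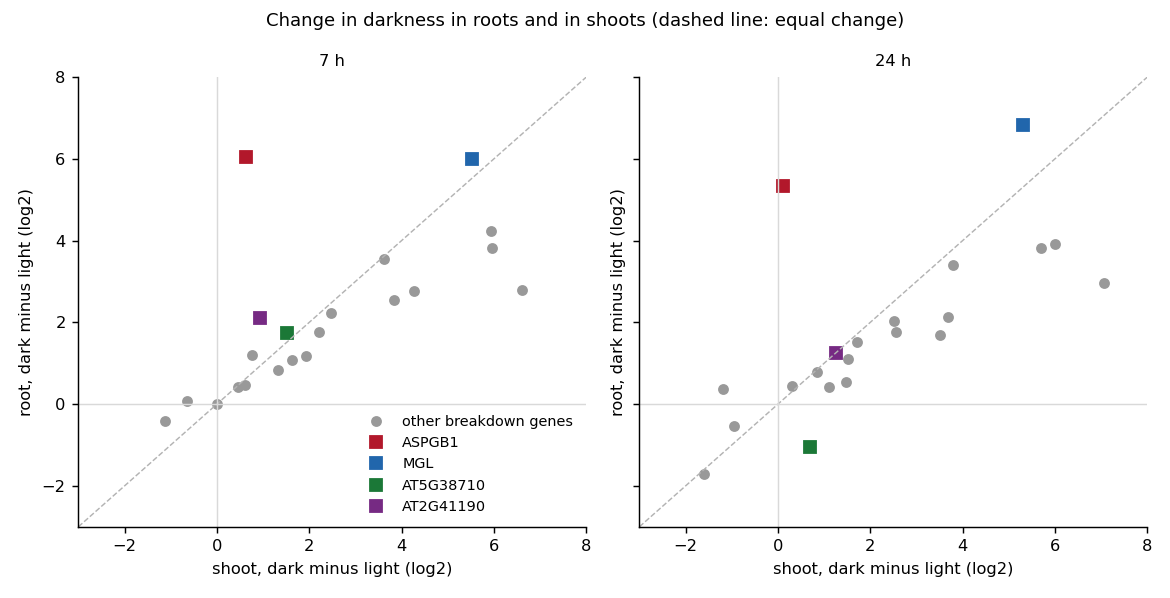
Change in darkness (dark minus light, log2) in roots (y axis) against shoots (x axis) after 7 h (left) and 24 h (right) for the 4 genes (squares) and 17 other genes of amino acid breakdown (grey dots), with a dashed line of equal change. ASPGB1 lies far above the line, at 6.05 in roots and 0.64 in shoots at 7 h, while the strongest changes among the other breakdown genes lie below it.

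Of the breakdown genes 6 of 17 rose in submerged shoots at 7 h, where 6.52% of all probe sets were called higher, and 1 was called in each of the other 3 submergence comparisons. Of all probe sets 4.27% were called lower in submerged roots at 7 h and 1.83% at 24 h. In submerged shoots at 24 h 5.90% were called higher. The single calls are given as a description. In submerged roots 1 of 17 was called at 7 h, MCCA, which fell by 0.47 (adjusted p = 0.02). At 24 h 1 was called, MCCB, which fell by 0.49 (adjusted p = 0.045), and the list medians were −0.11 and −0.30 beside −0.04 and −0.02 over all probe sets. The count in roots at 7 h was 0 without dark root replicate 2, submerged root replicate 1 or submerged root replicate 2. That at 24 h was 0 without dark root replicate 1 or either submerged root replicate, 2 without dark root replicate 2, and 0 with the replicate number as a block. With limma and an unadjusted p under 0.05, 5 breakdown genes were lower in submerged roots at 7 h and 7 at 24 h. In submerged shoots at 7 h D2HGDH, a dehydrogenase of the 2-hydroxyglutarate that lysine breakdown yields, rose by 0.90 (adjusted p = 0.0014), and MCCB rose by 0.58 (adjusted p = 0.0044). The count of 6 was 3 without dark shoot replicate 2 or submerged shoot replicate 1 and 2 without submerged shoot replicate 2. At 24 h AT5G09300, for a subunit of the branched-chain keto acid dehydrogenase, rose by 0.66 (adjusted p = 0.031). Darkness had lowered this gene in shoots, to 4.68 at 24 h against 5.88 in light. Submerged shoots, at 5.34, still lay below light shoots. The list median was 0.30 at 7 h and 0.02 at 24 h in shoots, and −0.01 over all probe sets at both times. The count of 1 at 24 h was 0 without dark shoot replicate 1, dark shoot replicate 2 or submerged shoot replicate 2.

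The root change under water minus the shoot change was compared in the same way by limma. At 7 h it was negative for 5 of the 17 genes and positive for 0, where 3.86% of probe sets were called lower and 3.82% higher. At 24 h it was negative for 1 and positive for 0, where 3.88% were called lower and 2.98% higher. With an unadjusted p under 0.05 these counts were 7 and 4 negative, and 0 positive at both times.

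Among 13 measured of 41 listed amino acid transporter genes, 3 rose and 3 fell in dark roots at 7 h, close to the share of all probe sets (24.8% higher, 22.1% lower). At 24 h 2 rose and 4 fell in roots (27.8% and 25.0% of all probe sets). In dark shoots 4 rose and 5 fell at 7 h (24.9% and 24.0%), and 3 rose and 3 fell at 24 h (27.0% and 25.4%). The list medians were 0.10 and −0.07 in roots and −0.16 and −0.20 in shoots. AT2G40420 rose in darkness in both organs, by 2.50 (adjusted p = 2.4e-09) in roots and 3.40 (adjusted p = 1.6e-11) in shoots at 7 h, beside differences of 2.11 and 0.93 for AT2G41190. AT5G38820 fell by 2.59 in dark roots (adjusted p = 2.7e-07) at 7 h and did not pass in shoots (−0.19). Its light root arrays read 8.25 and 6.97 and dark roots stood at 5.02, whereas light shoots already stood at 5.24.

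By limma, 0 of the 13 were called in submerged against dark roots at either time. With an unadjusted p under 0.05, 2 were higher and 2 lower at 7 h, and 0 were either at 24 h. In submerged shoots 3 rose and 1 fell at 7 h, where 6.52% of all probe sets were called higher and 7.14% lower. At 24 h 2 rose and 1 fell, where 5.90% were called higher and 6.02% lower. AT3G56200 rose by 1.53 (adjusted p = 1.3e-04) at 7 h and 1.77 (adjusted p = 3.3e-05) at 24 h, whereas AT5G65990 fell by 1.44 (adjusted p = 1.4e-05) at 7 h and fell by 0.94 (adjusted p = 0.0012) at 24 h. The list medians were −0.07 and −0.01 in submerged roots and 0.13 and 0.18 in submerged shoots.

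Genes of amino acid synthesis, not only of the substrates of the 4 genes, were thinly covered, with 3 measured of 31 listed. In dark roots 0 rose and 1 fell at 7 h (24.8% and 22.1% of all probe sets) and 0 rose and 2 fell at 24 h (27.8% and 25.0%). In dark shoots 1 rose and 2 fell at both times (24.9% and 24.0% at 7 h, 27.0% and 25.4% at 24 h). Under water 1 of the 3 fell in roots and 1 in shoots at 7 h, where 4.27% and 7.14% of all probe sets were called lower. At 24 h 0 were called, and 2 in roots and 1 in shoots were higher with an unadjusted p under 0.05. HMT-1 encodes an enzyme that makes methionine, the substrate of MGL, from homocysteine. It fell by 1.28 in dark roots (adjusted p = 4.6e-06) at 7 h and rose in dark shoots by 1.75 (adjusted p = 5.6e-08), whereas MGL was higher by 5.99 and 5.52 in these organs. In submerged shoots at 7 h HMT-1 stood at 7.23, against 8.83 in dark shoots, and fell by 1.61 (adjusted p = 2.2e-06). The asparagine synthetase genes, the other proline dehydrogenase gene ERD5 and the proline synthesis genes had no 1-gene probe set in the probe table and were not analysed here.

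The probe sets most like each gene over the 10 group means were sought among 13509 others that name 1 gene. For ASPGB1 they were AT1G67480 (r = 0.997), AT5G13260 (0.980), AT5G66650 (0.975), AT5G46040 (0.971) and AT2G36350 (0.969). AT1G67480 had group means of 9.34 to 13.11 and AT5G46040 of 3.99 to 9.49, while AT5G13260 covered only 8.06 to 8.78. For MGL they were AT2G04690 (r = 0.991), AT1G72060 (0.981), AT1G01770 (0.980), AT1G32530 (0.979) and AT2G41710 (0.979). AT1G72060 spanned 4.63 to 12.19, a range as wide as that of MGL.

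The other genes had looser matches. For AT5G38710 the closest were NQR (r = 0.884), AT5G35070 (0.866), AT3G01580 (0.862), AT5G09940 (0.861) and 5-FCL (0.860), and each of them varied by less than 1 log2 unit. Group means were low for AT5G35070 (3.86 to 4.33), AT3G01580 (3.68 to 3.94) and AT5G09940 (3.68 to 3.91), where the lowest value on any array was 2.834. For AT2G41190 they were AT2G34820 (r = 0.903), AT1G22610 (0.900), AT2G29920 (0.899), AT5G32510 (0.899) and AT5G54300 (0.898). Only AT5G54300 of these covered a wide range, from 4.79 to 7.81. AT2G34820 was low as well, at 3.68 to 3.95. Whether the patterns of such low probe sets are background was not tested. The correlations compare 10 means taken from the same arrays and were the highest of many, so they describe likeness and carry no test.

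**Figure D4:**
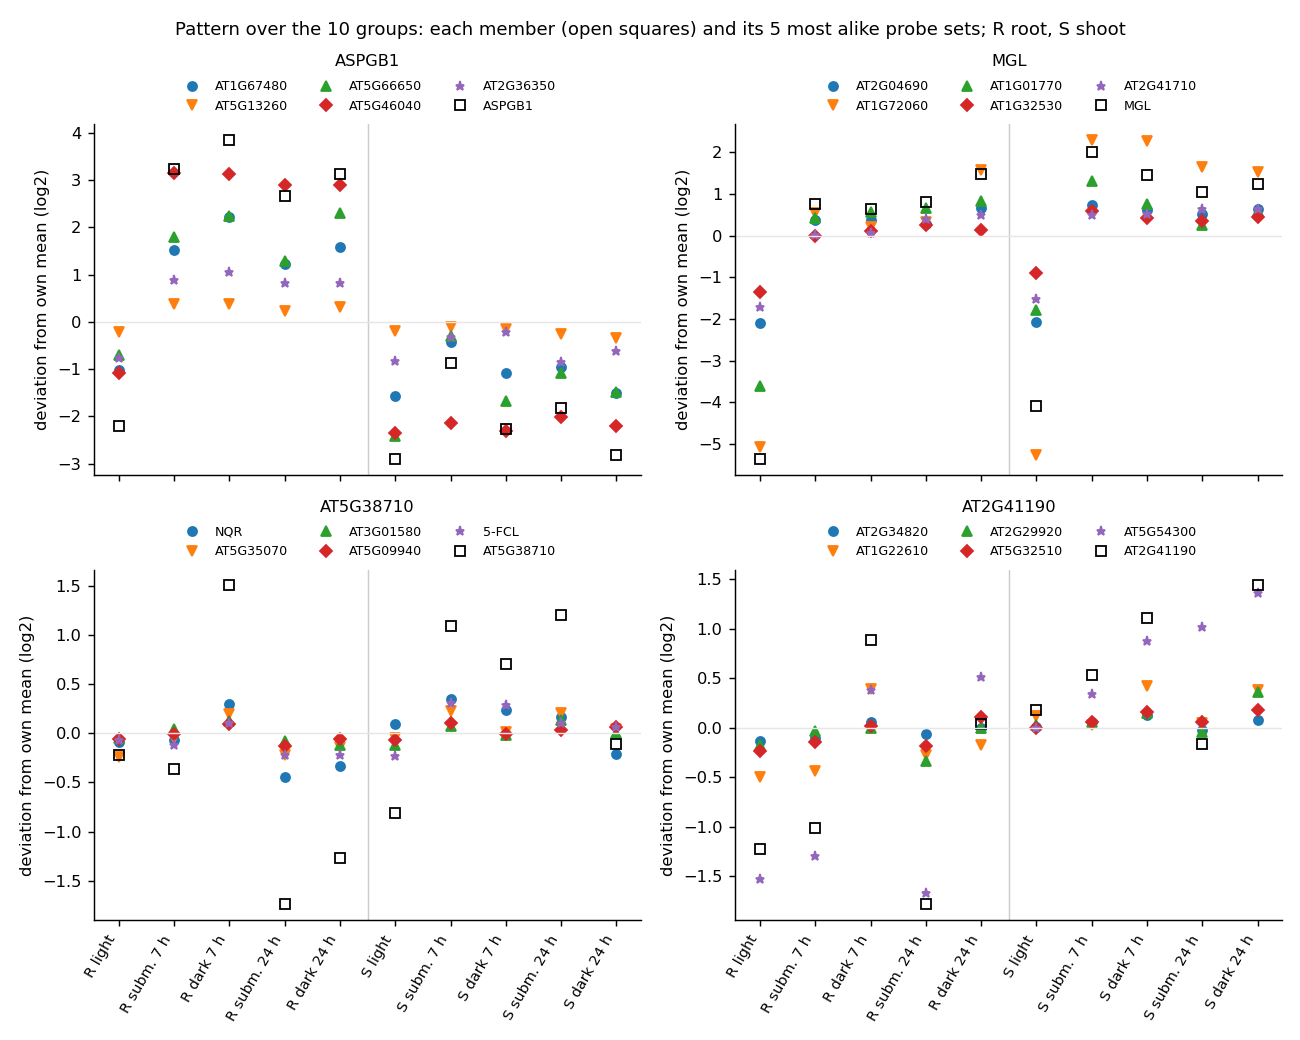
Group means of each gene (open squares) and of its 5 most alike named probe sets (coloured markers), each as the deviation from its own mean over the 10 groups (log2, y axis), with root groups left and shoot groups right of the grey line. Of the matches of ASPGB1 and MGL all but AT5G13260 vary by more than 1 (AT1G67480 with r = 0.997, AT2G04690 with r = 0.991), whereas 9 of the 10 matches of AT5G38710 and AT2G41190 vary by less than 1.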

How the data were processed

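The authors deposited log2 expression values per probe set for 20 arrays, made with RMA and affy per the submitters' processing notes, with no versions given; no further normalization was applied. The table held 22810 probe sets, and 22746 were tested after the 64 Affymetrix controls were removed. A platform probe table named 14016 of them, 13513 with 1 gene, and 13436 of these matched a TAIR10.1 RefSeq locus. The brightest 1-gene probe set stood for a gene; positions are not given because no genome build is named. Each probe set was fitted with limma 3.58.1 in R 4.3.3 on 10 group means (10 residual and 7.041 prior degrees of freedom), with two-sided p-values adjusted by Benjamini and Hochberg within a contrast and called under 0.05. The 4 genes, the gene lists and the naming rule were chosen with earlier results of these data known. The named genes were the 4 genes, the 5 probe sets most alike to each, list genes from among the 3 largest called rises and falls of a contrast, and ASPGA1, the only listed neighbour of their steps with a 1-gene probe set; the synthesis genes AT3G23940 and AT3G58610 are only counted. On simulated arrays for submerged against dark roots at 7 h (22746 probe sets), 15 of 67 changes of log2 0.5, 66 of 67 of log2 1 and 66 of 66 of log2 2 were called, with 11 false calls. Only these probe sets were changed, and the noise was independent and normal with the fitted spread. In the data 4.42% of probe sets were called higher and 4.27% lower in this comparison, so recovery there can differ. Alternatives were other scalings, a filter (values above 6 on 2 or more arrays), fits limited to 1-gene probe sets or to 1 organ, a robust variance trend, a minimum log2 change of 1, a replicate block, and omission of single arrays; the array left alone in its group was then assumed to have the spread seen in other groups.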

Additional observations from a re-analysis of the deposited data

Results flagged for a closer look

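In 3 cases every root array of the first group lay on 1 side of the second group and every shoot array on the opposite side, and the difference between organs was not tested because the genes were chosen on these values. ASPGB1 under water at 7 h was lower than dark tissue in roots and higher in shoots, with a root minus shoot difference of −2.01. AT5G38710 did the same under water at 24 h (−1.79), and in darkness at 24 h it was below light in roots and above it in shoots (−1.75).

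For other named genes of amino acid use the test of the difference between organs passed in the limma fit. In darkness the root minus shoot difference was −3.81 at 7 h and −4.11 at 24 h for AT4G33150, −1.71 and −2.10 for MCCA, −0.90 and −1.60 for AT2G40420, −2.40 and −2.17 for AT5G38820, and −3.03 and −3.26 for HMT-1. It was 0.73 at 7 h and 1.57 at 24 h for AT5G09300, 0.70 at 7 h for AT4G31810, 1.06 at 7 h for AT5G65990 and −0.69 at 24 h for ASPGA1. Under water at 7 h it was −0.97 for AT4G33150, −0.77 for MCCA, −0.62 for MCCB, 1.47 for HMT-1 and 1.37 for AT5G65990. Under water at 24 h it was −1.66 for AT3G56200, −0.98 for AT5G09300 and 1.29 for AT5G65990. Here too a positive value need not mean a larger change in roots. AT5G65990 stood at 5.64 in dark roots and 5.57 in submerged roots at 7 h, against 8.10 and 6.66 in shoots. In light it stood at 5.82 in roots and 9.35 in shoots.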

How the results depend on the processing

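Of the 224 alternative values of the 32 submergence and darkness differences of the 4 genes, 218 moved by no more than the replicate SD, 6 moved further and 0 changed the sign of a called difference. With 2 arrays per group, leaving out 1 array cannot move a difference by more than this SD. The balanced replicate block cannot move it at all. Only the other scalings could exceed the SD, and all 6 larger moves came from them, by at most 0.22. The count of 218 is therefore no measure of stability. Among differences that were not called, leaving out 1 array turned the sign of ASPGB1 in submerged roots at 24 h (0.09) and in dark shoots at 24 h (−0.27 and −0.13) and of MGL in submerged shoots at 24 h (0.02), and took AT5G38710 in submerged shoots at 7 h to −0.00. With quantile normalization again, ASPGB1 gave −0.74 in submerged against dark roots at 7 h (−0.60 as reported) and 6.20 in dark roots at 7 h against light (6.05). MGL in submerged roots at 7 h gave 0.06 with that normalization and 0.15 with median centring (0.13). AT5G38710 in dark shoots at 24 h gave 0.82 and 0.76 with these settings (0.70). The cause was not tested. The counts of breakdown genes called in darkness stayed within 1.5 times in all alternatives run, and those for submergence, which are small, did not. In submerged roots at 7 h the count of 1 became 0 with arrays of roots only and with a minimum log2 change of 1, and ranged from 0 to 1 when single arrays were left out. At 24 h in roots the count of 1 became 0 with median centring, with the replicate block, with root arrays only and with the minimum change, and ranged from 0 to 2 when arrays were left out. In submerged shoots at 7 h the count of 6 became 0 with the minimum change and ranged from 2 to 4 when arrays were left out. At 24 h in shoots the count of 1 became 0 with shoot arrays only and with the minimum change, and ranged from 0 to 1 when arrays were left out. Arrays of the same replicate number shared no strong shift: between groups, the replicate 1 minus replicate 2 differences correlated from −0.14 to 0.16, over 0.1 in 5 of 45 pairs of groups. A weaker effect of the replicate experiment cannot be told from these correlations. With the replicate block the breakdown count was 7 in submerged shoots at 7 h (6 without it) and 15 in dark roots at 7 h (14). Signal over background could not be judged, since the deposited values hold no detection calls.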
